A study of Homo sapiens with 40 samples.

Results

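The regions closed by heregulin in BT474 were 349 of 76603 regions in which an open-chromatin peak was found anywhere in the series. The members were chosen by the presence of peaks in 12 lists: a region had to hold a peak in at least 5 of the 6 vehicle lists of BT474 and in at most 1 of the 6 heregulin lists. Regions were made by merging the peaks of all 40 lists on chromosomes 1 to 22 and X wherever they overlapped by at least 1 bp. The presence of peaks after vehicle and after heregulin in BT474 therefore describes how the set was made, and it carries no test here.

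Chromatin accessibility was profiled by ATAC-seq, in which a transposase cuts and tags DNA that is not packed around nucleosomes, in BT474, a cell line from a ductal carcinoma of the breast that overexpresses HER2 and responds to trastuzumab, and in BT474R, a single trastuzumab-resistant clone grown out of it under the antibody. Both lines were serum-starved and then received epidermal growth factor (EGF), heregulin (HRG) or vehicle for 1, 12 or 24 h, and a baseline was taken at 0 h after starvation. Each of the 20 groups held 2 libraries, so that vehicle, heregulin and EGF had 6 libraries each in each line. The sources used here do not say whether the 2 libraries of a group came from separate cultures. The tests below pooled the libraries of all time points of an arm without regard to time. The comparison of the lines also pooled baseline with EGF. The p-values thus measure only the spread between libraries, with the differences between time points mixed in.

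Heregulin binds HER3 and HER4, which pair with HER2 and signal mainly through the PI3K and MAPK cascades, whereas EGF binds EGFR. Stretches of accessible DNA away from gene starts are typically enhancers, which are opened by pioneer factors such as the forkhead protein FOXA1 and the zinc finger protein GATA3 in luminal breast cells. Growth factor signalling is known to induce the FOS and JUN proteins that form AP-1 and bind newly opened enhancers, and PI3K signalling drives the forkhead proteins of the FOXO family out of the nucleus.

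The sequences around the summits of 8 members are shown. They were picked from the named members as the strongest of a class or for a forkhead or GATA match. Not every member so picked is shown, and the matches among those shown follow from the choice. Each is the 201 bp centred on the summit, read 5′ to 3′ on the plus strand of GRCh38, and none overlapped an annotated exon. Capitals mark forkhead matches (TGTTTAC or TATTTAC) and GATA matches (AGATAA) on either strand. The IQSEC3 and NCOA1 introns ranked among the strongest members with no heregulin peak, the DZANK1 intron and the region upstream of ANKRD1 held a forkhead match and had peaks in 5 and 0 of the 6 EGF lists, the ADAM22 intron kept its peak in all 6 EGF lists, the TMEM108 intron had no peak in any BT474R list, and the FHOD3 and MLEC introns had one in all 20.
IQSEC3 intron, chr12:80752-80952: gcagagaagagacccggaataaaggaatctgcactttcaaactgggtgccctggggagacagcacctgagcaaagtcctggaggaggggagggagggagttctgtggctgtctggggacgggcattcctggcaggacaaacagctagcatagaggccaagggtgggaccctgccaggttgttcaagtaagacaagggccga
NCOA1 intron, chr2:24540036-24540236: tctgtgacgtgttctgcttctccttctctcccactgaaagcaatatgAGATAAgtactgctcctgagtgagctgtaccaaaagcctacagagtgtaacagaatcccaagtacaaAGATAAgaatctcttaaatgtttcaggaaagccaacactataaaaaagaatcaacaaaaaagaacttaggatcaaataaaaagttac
DZANK1 intron, chr20:18421729-18421929: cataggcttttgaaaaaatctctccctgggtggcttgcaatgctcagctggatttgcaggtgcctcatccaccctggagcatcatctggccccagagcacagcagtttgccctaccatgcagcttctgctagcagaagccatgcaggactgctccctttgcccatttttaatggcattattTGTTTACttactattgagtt
upstream of ANKRD1, chr10:90930494-90930694: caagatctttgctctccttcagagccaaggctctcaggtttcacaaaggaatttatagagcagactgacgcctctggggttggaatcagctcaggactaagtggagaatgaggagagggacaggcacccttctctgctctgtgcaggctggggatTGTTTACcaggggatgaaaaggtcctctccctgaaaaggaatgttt
ADAM22 intron, chr7:88109718-88109918: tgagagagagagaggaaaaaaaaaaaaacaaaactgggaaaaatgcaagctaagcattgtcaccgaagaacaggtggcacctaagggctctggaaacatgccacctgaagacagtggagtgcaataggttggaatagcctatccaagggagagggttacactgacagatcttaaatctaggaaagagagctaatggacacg
TMEM108 intron, chr3:133329753-133329953: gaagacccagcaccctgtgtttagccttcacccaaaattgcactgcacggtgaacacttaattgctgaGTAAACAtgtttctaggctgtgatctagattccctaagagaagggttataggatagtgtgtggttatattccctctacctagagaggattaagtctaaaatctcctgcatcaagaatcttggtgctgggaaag
FHOD3 intron, chr18:36511818-36512018: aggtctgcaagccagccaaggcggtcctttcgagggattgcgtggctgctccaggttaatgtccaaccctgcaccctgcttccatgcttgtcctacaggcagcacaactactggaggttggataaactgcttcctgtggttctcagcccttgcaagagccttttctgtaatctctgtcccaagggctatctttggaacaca
MLEC intron, chr12:120692743-120692943: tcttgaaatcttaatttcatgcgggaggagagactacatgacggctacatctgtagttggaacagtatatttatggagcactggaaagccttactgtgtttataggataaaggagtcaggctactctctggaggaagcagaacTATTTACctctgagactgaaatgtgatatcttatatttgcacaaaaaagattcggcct

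The members were weak peaks from the start. Strength was read as the rank percentile of a peak within its own list, where 100 is the peak with the largest area under the peak caller's significance curve, and the strongest members are those with the highest mean over the vehicle lists that held a peak. Over the 6 vehicle lists the median rank percentile of the members lay between 9.52 and 15.9, against a median of 57.5 for the mean vehicle rank of regions that kept their peak in at least 5 heregulin lists. Between 89.6% and 97.9% of the members' vehicle peaks had an area below 400, where the lowest area that a list retains is 200, and 33.6% to 34.3% of all peaks in those lists did. A member without a peak may thus have had an area just below 200, and the lists do not say how far below. When only peaks with an area of at least 400 were used, the same rule chose 211 regions, of which 1 overlapped a member. With the 32479 strongest peaks of each list it chose 377 regions, again with 1 overlapping a member. The set below is therefore the one that lies at the detection limit of these lists.

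Of the 349 members, 48 had 6 vehicle and 0 heregulin peaks, 82 had 6 and 1, 93 had 5 and 0, and 126 had 5 and 1. Just outside the rule lay 218 regions with 5 and 2 peaks, 200 with 6 and 2, 189 with 4 and 0 and 207 with 4 and 1. Their median vehicle rank percentiles were 10.5, 15.9, 9.49 and 9.03, against 17.5, 18.3, 11.3 and 10.0 for the members in the order given above, so the step across the threshold was small. Of the 208 members with a single heregulin peak, 75 had it in the second 24 h library and 12 in the first 1 h library.

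Of the 8 strongest members with peaks in all vehicle lists and no heregulin peak, 6 were intronic. The first lay in an intron of IQSEC3, an exchange factor for ARF GTPases, at chr12:80366-81238 and 3.48 kb downstream of the nearest annotated start. Its vehicle rank percentiles had a lowest, median and highest value of 39.2, 44.8 and 50.5, and it had peaks in 3 EGF lists, both baseline lists and 0 BT474R lists. This member is close to the end of the chromosome, where sequence is shared with other chromosome ends, and the part of shared reads in its signal was not tested. The second, chr5:37254572-37255272, was 5.33 kb upstream of CPLANE1, a gene of ciliogenesis, with vehicle ranks of 15.9, 40.9 and 64.3 and 2 EGF peaks. Its vehicle values were the most widely spread of the 8. The third, chr4:155099854-155100333, was 108.6 kb from any coding start and had vehicle ranks of 23.8, 34.1 and 44.9. An intron of NCOA1, a coactivator of nuclear receptors, followed at chr2:24539890-24540556 with ranks of 24.7, 32.9 and 42.9 and 4 EGF peaks. Introns of NUP54, a nuclear pore protein, CREB5, a bZIP transcription factor, ACACA, the acetyl-CoA carboxylase that commits carbon to fatty acid synthesis, and DZANK1 completed the group, with median vehicle ranks of 24.0, 30.0, 33.2 and 28.9. All 8 had a peak in both baseline lists of BT474, and 7 of the 8 had none in BT474R. The exception was the NUP54 intron, with peaks in 8 of 20 lists.

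Libraries of the series held between 32479 and 56846 peaks, and those of BT474 between 47571 and 56846. The cell type was checked at promoters. All 9 luminal marker genes, among them KRT8, EPCAM, GATA3, FOXA1 and ERBB2, had a promoter peak in 40 of 40 lists, and PTPRC, CD3E, PECAM1 and COL1A2 had one in 0 of 40. CD14 and PDGFRB had one in 13 and 12 lists, and COL1A1, VWF and CDH5 in 40. A peak at a promoter does not say that the gene is expressed.

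**Figure D1:**
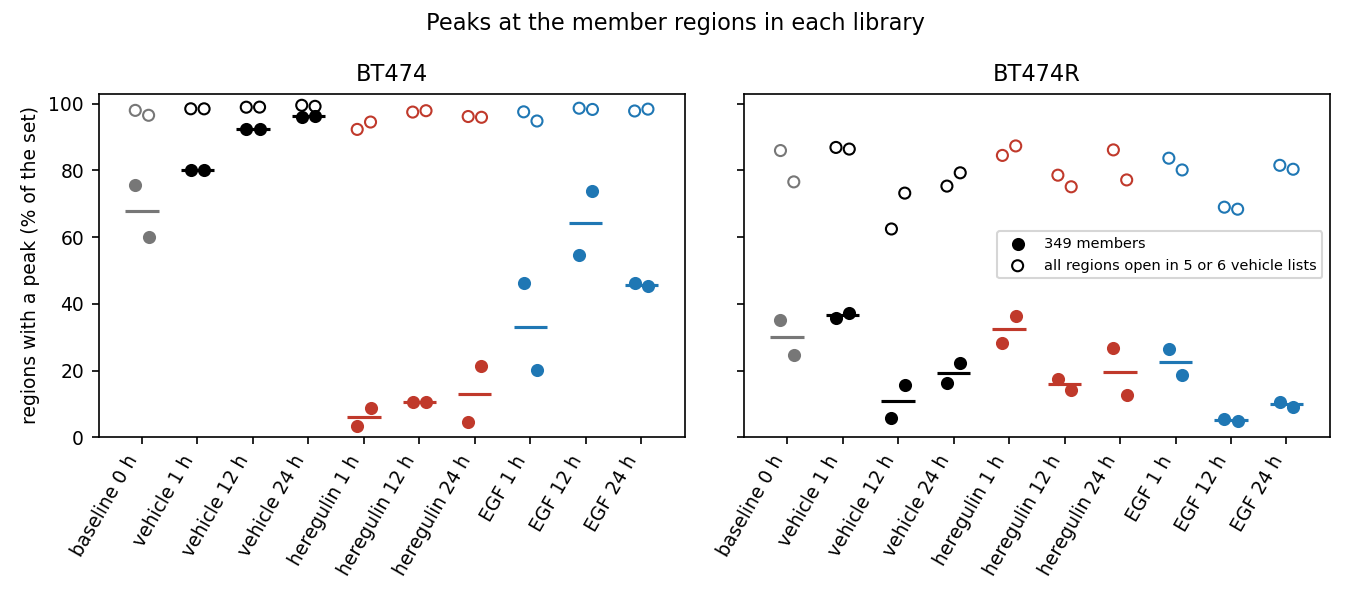
Percent of regions with a peak in each library of BT474 (left) and BT474R (right), by treatment and hours. Filled points are the 349 members, horizontal lines the mean of 2 libraries, and open points all 44071 regions with a peak in 5 or 6 BT474 vehicle lists. The EGF points of the members in BT474 sit between 20.1% and 73.9%. They are below all vehicle points and above all heregulin points but 1, while the open EGF points stay at or above 94.8%. The rule sets the vehicle and heregulin points. The baseline points of BT474, at 75.6% and 59.9%, also lie between them.

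Baseline lists held peaks at fewer members than the vehicle lists did, as a rule that asks for vehicle peaks tends to give. At baseline, which the rule did not use, 75.6% and 59.9% of the members had a peak in the 2 libraries, below all 6 vehicle lists. Both baseline lists held a peak at 184 members (52.7%), 1 of them at 105 and neither at 60. Both held one at 95.5% of all regions open in 5 or 6 vehicle lists and at 71.1% of the partly kept regions, those with 2 to 4 heregulin peaks. The vehicle lists of the rule held peaks at 80.2% and 80.2% of members at 1 h, 92.3% and 92.3% at 12 h, and 96.0% and 96.3% at 24 h. The heregulin lists held 3.44% and 8.88% at 1 h, 10.6% and 10.6% at 12 h and 4.58% and 21.5% at 24 h. The rule sets these vehicle and heregulin shares.

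After EGF the mean share of members with a peak lay between the vehicle and heregulin shares, which the rule sets. The 2 baseline libraries, with 75.6% and 59.9%, also lay between them. Of the 349, 46 (13.2%) had a peak in 5 or 6 of the 6 EGF lists, 233 (66.8%) in 2 to 4 and 70 (20.1%) in 0 or 1. The share of members with a peak was 46.1% and 20.1% in the 1 h libraries, 54.7% and 73.9% at 12 h, and 46.1% and 45.3% at 24 h, a mean of 47.7% ± 17.4 (SD, n = 6). The 1 h and 12 h replicates lay far apart and the 24 h replicates were close, so no order of the time points can be read from 2 libraries each. In contrast, 96.1% of all regions open in 5 or 6 vehicle lists had a peak in 5 or 6 EGF lists. The gap was also present among regions of like rank. Among regions open in 5 or 6 vehicle lists whose mean vehicle rank lay between 8.71 and 19.2, the middle range of the members, 82.6% of the 4520 that were no members had 5 or 6 EGF peaks, against 12.6% of the 175 members in that range. These shares count peaks in the EGF lists alone. The members, however, were chosen by vehicle peaks present and heregulin peaks missing near the detection limit. The part of that choice in the gap was not tested. Leaving out 1 library, with 1 list fewer asked for, moved the members' share from 13.2% to between 9.18% and 28.7%, the latter without the second 1 h EGF library, and the size of the set to as many as 588, without the first 1 h vehicle library.

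**Figure D2:**
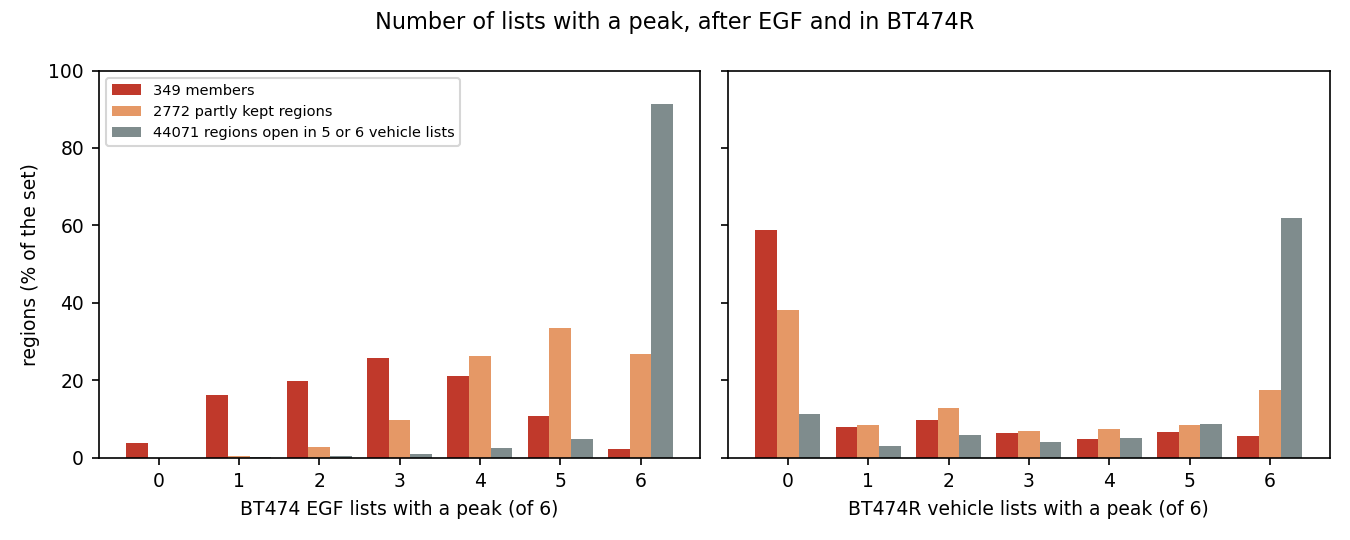
Percent of regions (vertical axis) by the number of lists with a peak, in the 6 EGF lists of BT474 (left) and the 6 vehicle lists of BT474R (right), for the members, the 2772 regions with 5 or 6 vehicle and 2 to 4 heregulin peaks, and all 44071 regions open in 5 or 6 vehicle lists. After EGF the members spread over all counts with 25.8% at 3 lists, whereas in BT474R 58.7% of them have no vehicle peak.

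EGF had fewer peaks than vehicle at 325 members, more at 1 and the same number at 23, as a rule that starts from regions with 5 or 6 vehicle peaks tends to give. Fisher's exact test per region, two-sided, could reach p below 0.05 at 115 members, those with peaks in 5 to 7 of the 12 EGF and vehicle lists, and called 26 lower and 0 higher. Of all 4492 regions that could be called, 0.690% were lower and 18.3% higher. A region with 5 or 6 vehicle peaks and a total of 5 to 7 can only be called lower. Among regions open in 5 or 6 vehicle lists 190 could be called, and 31 (16.3%) were lower. These 190 include the 115 members, and the 31 include their 26 calls. The 16.3% is therefore no background for the members' share of 22.6%. Of the partly kept regions 70 could be called, and 5 (7.14%) were lower. Since the same vehicle lists chose the members, their count is a description and not a result of the EGF test. It ranged from 26 to 68 when 1 library was left out, the most without the first 1 h vehicle library. At 2 members all 6 vehicle lists and no EGF list held a peak. One lay in an intron of FBXO36, 21.1 kb from the start of TRIP12, which encodes a ubiquitin ligase, and the other at chr3:8294246-8294610, 207 kb from the nearest coding start.

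The strongest members without an EGF peak ranked below the strongest of those with an EGF peak in every list. The 4 strongest with no EGF peak were 22.3 kb upstream of SLC5A9, a sodium-coupled sugar transporter, in the FBXO36 intron near TRIP12, in an intron of HOXA3, a homeobox gene, and 9.51 kb upstream of ANKRD1, an ankyrin repeat gene known as a target of YAP. Their median vehicle rank percentiles were 25.3, 16.7, 15.1 and 14.1, and none had a peak in BT474R. The 4 strongest with a peak in all 6 EGF lists were in introns of ADAM22, a cell surface protein of the ADAM family without protease activity, PARVA, an adaptor of integrin-linked adhesion, and CREB5, and 21.9 kb from the start of TRAPPC8, a vesicle trafficking gene. Their median vehicle ranks were 40.03, 32.3, 30.0 and 27.9, and their median EGF ranks 9.54, 20.4, 15.95 and 12.7. These 4 were picked by their vehicle ranks, so the order of the 2 medians is not read. At the ADAM22 intron, for example, the EGF ranks ran from 0.495 to 26.3 and the vehicle ranks from 20.5 to 43.8.

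Over the whole set the 46 members with 5 or 6 EGF peaks had a median vehicle rank percentile of 16.3. It was 12.7 for the 233 with 2 to 4 and 11.7 for the 70 with 0 or 1. Both baseline lists held a peak at 71.7%, 55.4% and 31.4% of these classes in the same order. A peak was absent from every BT474R list at 52.2%, 53.2% and 65.7% of them.

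**Figure D3:**
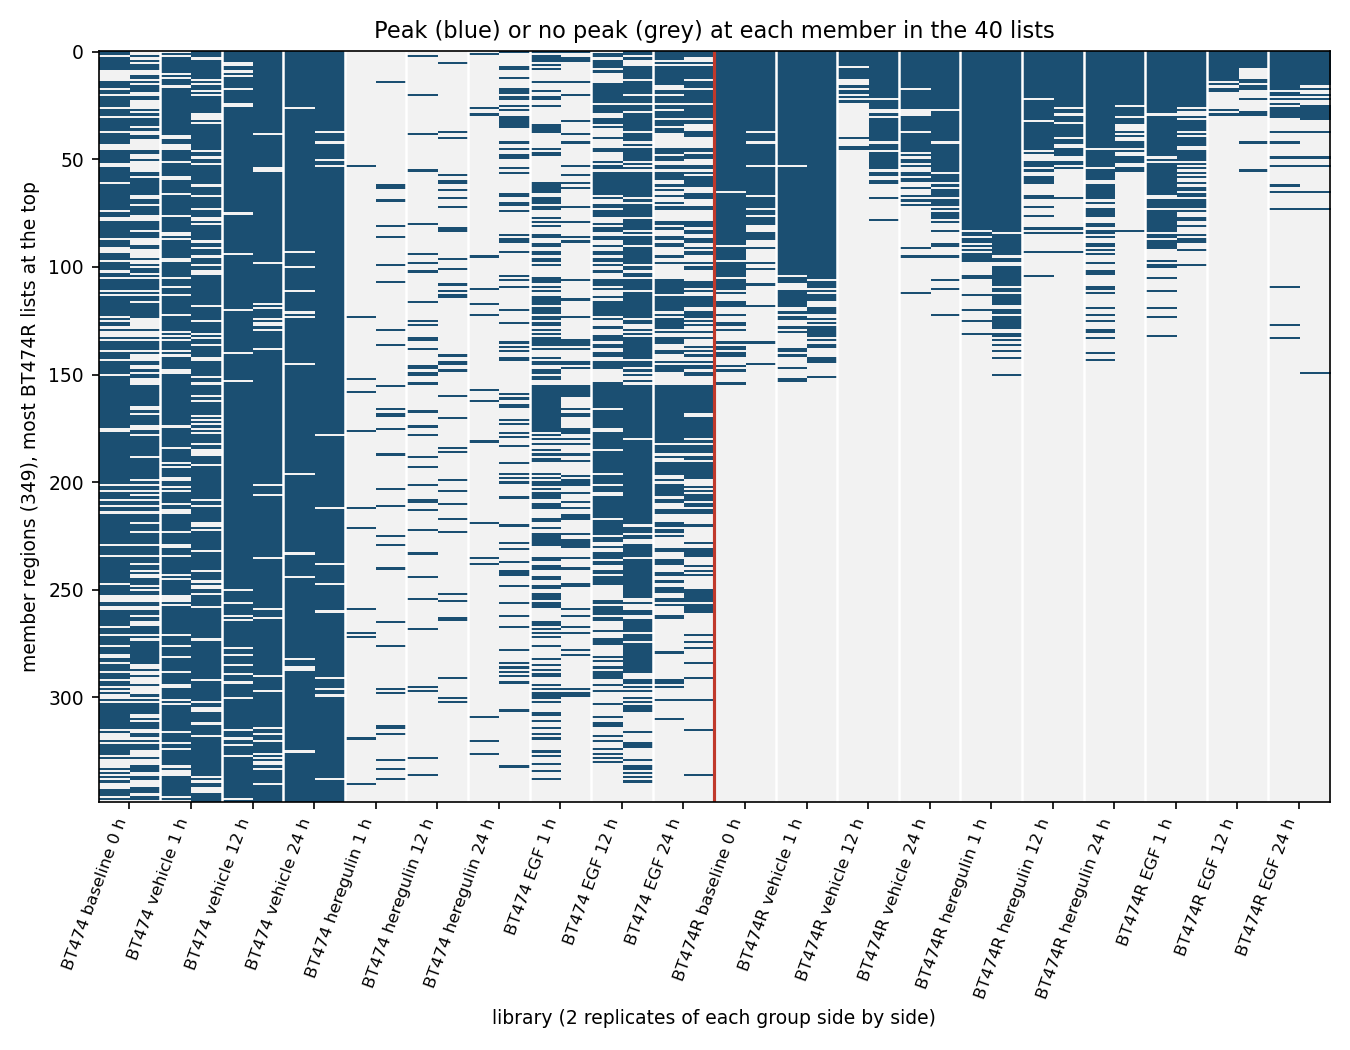
Each row is 1 of the 349 members and each column 1 of the 40 libraries, grouped by line, treatment and hours, with a peak in blue and no peak in grey. Rows are ordered by the number of BT474R lists, then of EGF lists, with a peak. The lower part of the right side is empty: 194 members had no peak in any BT474R list, although most had one in the baseline lists of BT474.

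In BT474R most members had no peak under any treatment. No BT474R list held a peak at 194 members (55.6%), 83 had one in 1 to 9 of the 20 lists, 65 in 10 to 19 and 7 in all 20. Of all regions open in 5 or 6 BT474 vehicle lists, 8.51% had no BT474R peak, and of those that kept a peak in 2 to 4 heregulin lists 31.4%. Among regions whose mean vehicle rank in BT474 lay in the middle range of the members, 41.2% of the 4520 non-members had 0 or 1 of 6 BT474R vehicle peaks and 26.5% had 5 or 6, against 64.0% and 13.7% of the 175 members. Without the rank limit, 66.8% of members had 0 or 1 such peaks, against 14.2% of all regions open in 5 or 6 vehicle lists. The gap was thus smaller at like rank. The mean over the 20 BT474R lists was 20.2% ± 10.8 of members (SD). By treatment, the mean was 29.9% at baseline (n = 2), 22.2% ± 12.3 with vehicle, 22.6% ± 9.32 with heregulin and 12.5% ± 8.39 with EGF (SD, n = 6 each). The library with the fewest peaks, the first 12 h vehicle library of BT474R with 32479, held peaks at 5.73% of members and at 62.4% of all regions open in the BT474 vehicle lists. The part of the number of peaks in the member share was not tested.

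A comparison of the lines set the 8 baseline and EGF libraries of BT474R against the same 8 of BT474. The rule used none of these lists. All members, however, were chosen by peaks in BT474 vehicle lists, which tends to favour calls lower in BT474R. The part of that choice in these calls was not tested. Fisher's exact test per region, two-sided, called 101 of the 199 members that could be called lower in BT474R (50.8%), and 2 higher. This is near the background, since 49.5% of all 18692 testable regions were lower and 23.0% higher. Among testable regions open in 5 or 6 BT474 vehicle lists 86.8% were lower. With Benjamini-Hochberg adjustment over the testable regions 97 members were lower and 2 higher, and with adjustment over all regions in at least 2 lists 20 were lower. The introns of ADAM22, PARVA and CREB5 and the region 21.99 kb from GSE1 had peaks in 8 of 8 BT474 and 0 of 8 BT474R libraries of this comparison (adjusted p = 0.000666, Fisher's exact test). The 2 higher members, named after their values were seen, lay near SEC62, a gene of protein import into the endoplasmic reticulum (adjusted p = 0.0374, Fisher's exact test), and ZBTB24, a zinc finger gene (adjusted p = 0.00379, Fisher's exact test). They had peaks in 18 and 19 of the 20 BT474R lists, with median vehicle ranks in BT474 of 3.85 and 3.71, among the weakest of the set.

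No loss after heregulin was called at the members in BT474R. Heregulin had fewer peaks than vehicle at 39 members, more at 42 and the same number at 268, and 205 members had no vehicle peak in BT474R to lose. Fisher's exact test could reach p below 0.05 at 30 members and called 0 lower and 0 higher, with a lowest unadjusted p of 0.0606 (exact). Over all 6415 regions 0% were lower and 2.31% higher at an unadjusted p below 0.05, so no region of the genome was called lower and the count of 0 among the members is the background. With 43 members open in 5 or 6 BT474R vehicle lists, few could have shown a loss.

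In BT474R most members that differed between EGF and vehicle had fewer peaks after EGF. EGF had fewer peaks than vehicle at 115 members, more at 10 and the same number at 224, while over all regions open in 5 or 6 BT474 vehicle lists 5386 had fewer and 5127 more. The partly kept regions, also weak, had the same direction, with 855 fewer and 237 more. Fisher's exact test called 3 of 44 testable members lower and 0 higher. The background was 0.411% lower and 3.67% higher of 6819 regions, and after adjustment 0 members remained, with a lowest adjusted p of 0.372 (exact). The 3, all at an unadjusted p of 0.0152 (exact), were an intron of HSPA9, the mitochondrial HSP70 chaperone, within 1 kb of a start, the second ACACA member, and chr19:28290961-28291509. Their peaks numbered 6 of 6 with vehicle and 1 of 6 with EGF at HSPA9 and at ACACA, and 5 of 6 and 0 of 6 at the chromosome 19 region. The heregulin lists of BT474R held 5, 4 and 6 peaks there. The EGF libraries of BT474R at 12 h held peaks at 5.44% and 4.87% of members and those at 24 h at 10.6% and 9.17%, against 26.4% and 18.6% at 1 h. With vehicle the same hours gave 5.73% and 15.8%, 16.3% and 22.3%, and 35.8% and 37.2%, so both arms were lower at 12 and 24 h than at 1 h.

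Members with a peak throughout BT474R were few. Of the 7 with a peak in all 20 lists, 3 of the strongest were in introns of FHOD3, a formin that assembles actin, KCNN3, a calcium-activated potassium channel, and MLEC, a lectin of the endoplasmic reticulum. At FHOD3 the median rank percentile was 55.4 over the BT474R lists and 19.1 over the vehicle lists of BT474. KCNN3 and MLEC had BT474R medians of 49.1 and 40.9 against 11.8 and 12.2. These ranks come from lists of unequal length, and the 3 regions were picked for their BT474R peaks, so no difference between the lines is read from them. The heregulin lists of BT474 held 0, 0 and 1 peaks there. Among the 194 without BT474R peaks, the strongest by mean vehicle rank besides IQSEC3 and CPLANE1 were chr2:94748982-94749669, 122 kb from the nearest coding start and close to the centromere, and an intron of TMEM108 with median vehicle ranks of 33.3 and 39.0.

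Members were distal and poor in GC. Only 23 (6.59%) lay within 1 kb of an annotated start of a protein-coding gene, against 25.5% of the 71600 regions found in at least 2 lists and 36.3% of regions that kept their peak. Regions opened by heregulin, with 0 or 1 vehicle and 5 or 6 heregulin peaks, stood at 7.32%, and those partly kept at 12.2%. Of the members 158 were intronic, 169 intergenic and 22 exonic, the median distance to a coding start was 26064 bp against 10714.5 bp for all regions, and 95 (27.2%) were more than 100 kb away, against 13.9%. Median width was 433 bp against 551 bp. Median GC content in the 201 bp around the summit was 42.8% against 51.7%, and 26.4% of members held no CpG there against 11.6%. The partly kept regions, with a median vehicle rank of 15.9, were also weak, and the part of strength in these features was not tested.

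The promoter members were a mixed group. The strongest was the CREB5 intron at chr7:28725100-28725604, 0.944 kb from an annotated start of the gene, with 6 of 6 EGF peaks and none in BT474R. It was followed by regions at PRR23E, at GATA3, the luminal transcription factor, at FABP12, a fatty acid-binding protein, at RAPGEF4, a cAMP-activated exchange factor for RAP, at SPSB1, an adaptor of a ubiquitin ligase, at PRODH2, a proline dehydrogenase family enzyme, and at FOXP1, a forkhead repressor. The GATA3 member, chr10:8057764-8059036, overlapped an exon and had 5 vehicle, 1 heregulin, 2 EGF and 0 BT474R peaks. The marker check above counted a peak at any annotated start of that gene, and found one in all 40 lists. The FOXP1 member at chr3:71130586-71130996 had 1 EGF and 0 BT474R peaks. The RAPGEF4 member had peaks in 16 of 20 BT474R lists, the most of these 8, and 6 of all 23 promoter members had peaks in 10 or more.

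Members were scattered over the genome. The median distance from a member to the next was 2725 kb, 8 members lay within 100 kb of another, and no 3 formed a group. Chromosome 7 held the most, 33, and chromosome 19 held 4. Of the genes with the nearest start within 100 kb, 247 had a member, and 7 had 2: ACACA, CREB5, ELMO1, MIOS, NPAS3, PITPNC1 and TMEM229A. The nearest gene is a label and not a shown target.

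Few members lay near genes of the pathway and lineage lists. Of regions open in the vehicle lists within 100 kb of a coding start, 254 of 39113 (0.649%) were members. Among genes of ERBB receptors and their feedback 0 of 93 open regions were members, among FOXO and PI3K feedback genes 0 of 107, among TGF-beta and BMP genes 0 of 98, among quiescence genes 0 of 55, and among clock genes 0 of 47. At the share seen for all genes each such list would hold less than 1 member, so counts of 0 say little. Steroid receptor genes and targets held 1 of 95, an intron of ZBTB16, a zinc finger repressor and known hormone target, at chr11:114165385-114165723 with 5 vehicle, 0 heregulin, 3 EGF and 0 BT474R peaks. Luminal factors held 1 of 129, at GATA3, and lipid metabolism genes 2 of 104, both at ACACA. The ACACA member at chr17:37317832-37318431 had 6 vehicle, 0 heregulin, 3 EGF and 0 BT474R peaks, and the one at chr17:37177264-37177490 had 5, 1, 5 and 13.

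Motifs were sought within 100 bp of the summit on both strands, as exact letters. The forkhead letters were found at 102 members (29.2%), against 14.3% of all regions, 12.4% of kept, 18.2% of partly kept and 13.6% of opened regions. The GATA letters AGATAA were found at 59 (16.9%), against 8.93%, 7.34%, 13.5% and 8.13% in the same order. The AP-1 letters TGANTCA were found at 8 (2.29%), against 16.3% of all, 13.6% of kept, 4.83% of partly kept and 65.6% of opened regions. The SP and KLF letters GGGCGG were at 2.87% of members and 19.3% of all regions, and the ETS letters CCGGAA at 1.43% and 6.92%. The TEAD letters CATTCC stood at 16.3% and 13.9%, and AP-2 letters GCCNNNGGC at 8.60% and 16.7%. No member held the cyclic AMP element TGACGTCA, present at 0.656% of all regions, or a full estrogen response element, present at 0.0405%.

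**Figure D4:**
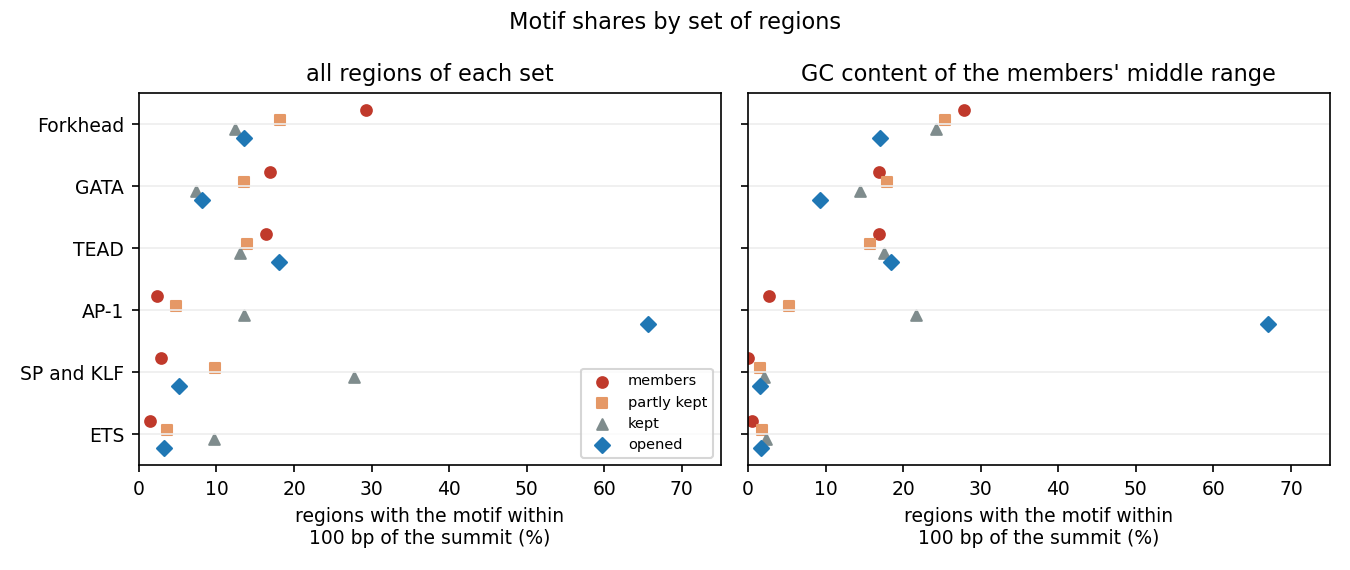
Percent of regions with each motif within 100 bp of the summit (horizontal axis), for the members and the sets of partly kept, kept and opened regions, over all regions (left) and over regions with the GC content of the middle range of the members (right). Forkhead stands at 29.2% of members against 12.4% of kept regions on the left and at 27.9% against 24.2% on the right, while AP-1 stays at 2.73% of members against 67.0% of opened regions on the right.

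Base composition moved with some of these shares. Both the forkhead and GATA letters are rich in A and T. When members and other regions were limited to a GC content of 38.3% to 48.8%, the forkhead share was 27.9% of 183 members against 22.8% of all regions, 24.2% of kept and 25.4% of partly kept regions, so the difference was smaller than over all GC contents. A further limit was the highest rank percentile in any of the 40 lists, at 21.2 to 40.4, the middle range of the members. With both limits, forkhead stood at 27.96% of 93 members against 20.3% of kept and 24.1% of partly kept regions. With the GC limit alone, GATA letters stood at 16.9% of members and 14.6% of all regions, but at 18.0% of partly kept regions. SP, KLF and ETS letters were rare in every set. The AP-1 share of the members stayed at 2.73%, against 22.2% of all, 21.6% of kept, 5.30% of partly kept and 67.0% of opened regions. The partly kept regions, which lost some heregulin peaks, were thus the closest to the members in AP-1 letters. With both the GC limit and the limit on the highest rank, 4 of 93 members (4.30%) held AP-1 letters, against 14.0% of kept, 5.84% of partly kept and 67.9% of opened regions. With a window of 250 bp and no limit, AP-1 letters were at 10.0% of members, 23.7% of all, 20.7% of kept and 11.4% of partly kept regions, and forkhead letters at 40.1%, 22.4%, 19.48% and 27.8%. These limits were chosen after the shares were seen. A match of letters is not a bound site, and other readouts of binding were not analysed here.

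The motif shares were also counted by the state of the members. Forkhead letters were at 32.9% of the 70 with 0 or 1 EGF peaks, 26.6% of the 233 with 2 to 4 and 37.0% of the 46 with 5 or 6. AP-1 letters were at 4, 3 and 1 members of these classes (5.71%, 1.29% and 2.17%). In BT474R, forkhead letters stood at 25.3% of the 194 members without a peak, 39.8% of the 83 with 1 to 9 lists and 27.8% of the 72 with 10 or more. AP-1 letters were at 5, 3 and 0 of them. With classes of this size, no order of these shares is claimed. Of the sequences printed above, the TMEM108, DZANK1, ANKRD1 and MLEC members carry the forkhead letters once each and the NCOA1 member the GATA letters at 2 places. They were printed for these matches. The IQSEC3, ADAM22 and FHOD3 members, which differ widely in their state after EGF and in BT474R, carry neither.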

How the data were processed

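ATAC-seq libraries of BT474 and BT474R were read as the authors' peak lists. According to the methods, the authors removed adapters with Trim Galore (0.6.6 in the submitters' processing notes), aligned reads to GRCh38 with BBMap, left out mitochondrial reads and blacklisted regions, and called peaks in each library separately with Genrich. The deposited score is the area under the −log10 p curve of a peak, at least 200 in every list, and the deposited −log10 p and q columns were not used further. Replicates were not pooled. No read counts were used here, so depth is known only as peaks per list. Peaks of the 40 lists on chromosomes 1 to 22 and X were merged at 1 bp overlap into 76603 regions, and members were found by the stated rule.

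The members, the gene lists, the motifs and the tests were chosen with earlier results of these data known. Presence of a peak was compared with Fisher's exact test per region, two-sided, over every region whose total of peaks allows p below 0.05 (5 to 7 of 12 lists, 5 to 11 of 16), with Benjamini-Hochberg adjustment over those regions. A region with peaks in 5 of 6 against 1 of 6 lists cannot pass (p = 0.0801, exact). The tests were checked on simulated data. Starts, exons and introns came from GENCODE release 44 on GRCh38. Named members were the 8 strongest with 6 vehicle and no heregulin peaks, 8 at promoters, the 4 strongest at each end of the EGF and BT474R counts, up to 4 called in each test, and those nearest to a listed gene (at most 3 a list), apart from results that are not reported here. The 18 members on chromosome 8 were counted, and no sequence of them is printed. Alternatives were a higher area, equal numbers of top peaks, trimmed peaks, leaving out each library, a replicate block, a wider promoter, a wider motif window and adjustment over all regions. The tools were scipy 1.17.1 for the tests, pysam 0.24.0 and samtools 1.23.1 for sequence, matplotlib 3.10.9 for figures, and pandas 2.3.3 with numpy 2.4.6 under Python 3.11.15.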

Additional observations from a re-analysis of the deposited data

How the results depend on the processing

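The set itself changed most with the threshold on peaks. A minimum area of 400 gave 211 regions. Of these, 9.00% had 5 or 6 EGF peaks, 13.3% lay at promoters and 23.2% held forkhead letters. In BT474R 0 were lower after EGF, and 55 were lower and 1 higher in BT474R than in BT474. Equal numbers of top peaks gave 377 regions, with 3.45%, 15.4% and 21.0% in the same order. Of these, 88 were lower after EGF in BT474, a description, since the same vehicle lists chose them. In BT474R, 2 were lower after heregulin and 9 after EGF, and 56 were lower and 19 higher than in BT474. The shares of all testable regions called were not counted at these 2 settings, so their calls have no background. Both settings gave different regions, since 1 region of each overlapped a member. Trimming peaks to 400 bp gave 393 regions, 346 of them members of the main set, and 10.2% at promoters. A promoter distance of 3 kb raised the promoter share to 14.9%, and a motif window of 250 bp raised forkhead to 40.1% and AP-1 to 10.0%, beside 22.4% and 23.7% of all regions.

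Leaving out a library also loosens the rule, since 1 list fewer is asked for, and gave 409 to 588 members: 588 and 563 without the first and second 1 h vehicle libraries of BT474 and 554 without its second 24 h heregulin library. The share with EGF peaks in all lists but 1 ranged from 9.18% to 28.7%, the latter without the second 1 h EGF library, and was 24.9% without the first. Promoter shares ranged from 6.32% to 9.29%, forkhead from 24.9% to 29.8%, AP-1 from 1.87% to 3.57% and the BT474R share from 19.3% to 25.7%. Members lower after EGF numbered 26 to 68 in BT474, the most without the first 1 h vehicle library, and 3 to 9 in BT474R, the most without its first 1 h EGF library. Between the lines 2 to 8 members were higher in BT474R. Those lower in BT474R numbered 101 to 191, the most without the second 24 h heregulin library of BT474. After heregulin in BT474R the count was 0 in every such fit, and 0 to 1 members were higher. The main counts of 26, 3 and 101 are the lowest of these ranges. Leaving out a library enlarged the set where the rule used it, and changed the counts needed for a call where the test used it. The part of single libraries in the number of calls was not tested apart from this. No member was called higher after EGF in any of these fits. In BT474 the rule fixes this beforehand, since a member may lack a peak in at most 1 vehicle list.

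Replicate numbers were shared between groups, but same-numbered libraries did not deviate together (correlations of -0.0649 to 0.0332), so the numbers were not taken as pairs. With the replicate block, 26, 0, 3 and 101 members were lower in the tests of EGF in BT474, heregulin and EGF in BT474R, and the lines. Adjusted over all regions in at least 2 lists, 0 members were lower after EGF in BT474, against 2 over the testable regions, and 20 between the lines. Detection is limited by the area of 200 and by the number of peaks per list, and no depth in reads is known.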
